A study of Mus musculus with 2 samples.

Results

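Autonomic neuron genes were measured in the embryonic mouse heart as 9 genes chosen by symbol: Tubb3, Stmn2, Ngfr, Gap43, Th, Dbh, Prph, Nefl and Nefm. All 9 were found among the 43346 gene rows with an Ensembl identifier. The data were total RNA-seq of 2 hearts of B6NCrl mouse embryos, 1 library each, labelled biological replicates 2 and 1 of 1 group. Both were at embryonic day 14.5 and carried no stated allele or treatment. Each label describes a single heart, collected on July 17 for replicate 2 and July 15 for replicate 1, yet gives the sex as a pool of male and female. The labels do not settle whether a library came from 1 heart or a pool, and each is called a heart here. With 1 library per collection day, heart and day cannot be told apart. The labels give 10 ng of RNA per library, mirVana extraction and added spike-in RNAs, and link a Smart-seq document as the general protocol. The tissue label was checked with 6 heart muscle genes, all far above 1 TPM in both libraries. Nkx2-5, a cardiac transcription factor, was at 137.5 TPM in replicate 2 and 134.5 in replicate 1, and Tnnt2, cardiac troponin T, at 5706 and 6128 TPM in the same order.

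The heart is supplied by sympathetic neurons, which release noradrenaline, and by parasympathetic neurons, which release acetylcholine. Both descend from neural crest cells. Parasympathetic cell bodies lie in ganglia on the heart itself, whereas sympathetic cell bodies lie in ganglia outside it and send axons along the vessels. Neuronal messenger RNA in a dissected heart can come from cell bodies inside the piece and from axons, and the Schwann cells along axons share some of these genes. The 9 genes cover nerve growth (Gap43, Stmn2), the neuronal cytoskeleton (Tubb3, Prph, Nefl, Nefm), neurotrophin reception (Ngfr) and the making of noradrenaline (Th, Dbh). Because they were picked with levels and differences in these 2 libraries already known, their values are descriptions and carry no test.

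Promoters are shown first, as a description of sequence. Whether they bear on any difference between the hearts was not tested. Of the 9, 5 matched the RefSeq promoter table (GRCm38.p6, the assembly named mm10 in the files), and Stmn2, Gap43, Nefl and Nefm did not. The motif search covered the 250 bases before the RefSeq start of each. RefSeq and GENCODE M21 place some starts differently, so each line prints only the bases before the start of the gene's main GENCODE transcript as well. That left all 250 bases for Prph, 231 for Th, 213 for Ngfr and 121 for Tubb3. The whole Dbh stretch, which begins 24 bases after the GENCODE start, is not printed. For Th that transcript is the 13-exon form, to which nearly all its reads were assigned, and the longer gene span given with its values comes from other forms. Capitals mark matches of 4 motifs on either strand. The cyclic AMP response element was searched as TGACGTCA and the TATA box as TATAAA. The core bound by homeodomain proteins such as Phox2a was searched as ATTA, and the GC box as GGGCGG.
Th, chr7:142900015-142900245, minus strand: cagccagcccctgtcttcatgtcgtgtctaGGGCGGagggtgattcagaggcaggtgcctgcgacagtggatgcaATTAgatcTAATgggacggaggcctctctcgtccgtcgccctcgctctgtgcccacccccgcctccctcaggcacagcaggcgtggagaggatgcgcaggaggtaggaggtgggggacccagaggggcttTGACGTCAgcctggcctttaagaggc
Prph, chr15:99054924-99055173, plus strand: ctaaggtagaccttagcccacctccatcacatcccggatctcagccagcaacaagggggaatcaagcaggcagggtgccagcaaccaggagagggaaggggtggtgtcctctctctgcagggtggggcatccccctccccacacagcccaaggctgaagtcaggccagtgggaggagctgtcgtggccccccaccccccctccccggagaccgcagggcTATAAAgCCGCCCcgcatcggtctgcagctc
Tubb3, chr8:123411303-123411423, plus strand: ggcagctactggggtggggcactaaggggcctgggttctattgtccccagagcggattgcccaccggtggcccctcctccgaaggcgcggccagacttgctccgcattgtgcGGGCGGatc
Ngfr, chr11:95587736-95587948, minus strand: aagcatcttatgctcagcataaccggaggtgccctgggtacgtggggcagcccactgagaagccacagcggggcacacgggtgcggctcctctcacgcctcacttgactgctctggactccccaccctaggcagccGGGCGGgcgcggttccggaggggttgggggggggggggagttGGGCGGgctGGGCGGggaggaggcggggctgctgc

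Th was the only one of the 5 with TGACGTCA, whose first base lay at position -45 from the RefSeq start. That motif occurred in 1.55% of all 32851 promoters searched in the same way. Dbh held 3 ATTA cores, at -157, -147 and -65, and Th held 2, at -175 and -167, while Tubb3, Ngfr and Prph held none. ATTA is short and occurred in 54.9% of all promoters. Prph held TATAAA at -31, as did 12.4% of promoters at any position. GC boxes numbered 4 in Ngfr, 2 in Tubb3, 1 each in Th and Prph and 0 in Dbh, and 32.7% of promoters held at least 1. The Tubb3 match at -46, the Ngfr match at -16 and the 3 Dbh matches fall in the bases not printed. All 250 Dbh bases searched lie after the GENCODE start of that gene. None of the matches overlapped another. GC content was 70.4% in Ngfr, 68.0% in Tubb3, 65.2% in Prph, 64.4% in Th and 53.2% in Dbh, against a median of 52.4% over all promoters. A match of letters is a description and not a shown binding site.

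The libraries were of similar depth, with expected counts on gene rows of 2.79e+07 in replicate 2 and 2.75e+07 in replicate 1. Spike-ins took 3.55% and 3.74% of all counts, in the same order. Levels are in TPM, a gene's share of all transcripts after correction for their length, so that genes can be compared. A difference is the log2 of replicate 2 over replicate 1 on TMM-scaled expected counts with a prior count of 0.5. Its 95% interval is exact (Clopper-Pearson on the share of the summed count) and covers counting error only. With 1 library per heart no p-value was computed.

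All 9 genes had reads in both hearts, and all 9 had more in replicate 2. In replicate 2, 8 of them reached 1 TPM, and in replicate 1 only Gap43, Stmn2 and Tubb3 did, so 3 reached it in both. Over all gene rows, 32.9% reached 1 TPM in replicate 2, 32.5% in replicate 1 and 31.5% in both, a share near the 3 of 9. Their summed level was 42.8 TPM in replicate 2 and 21.8 in replicate 1. Gap43 alone made up much of that, and without it the sums were 21.2 TPM in replicate 2 and 5.67 in replicate 1. In bulk tissue, fewer cells of a type and less RNA per cell cannot be told apart.

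**Figure D1:**
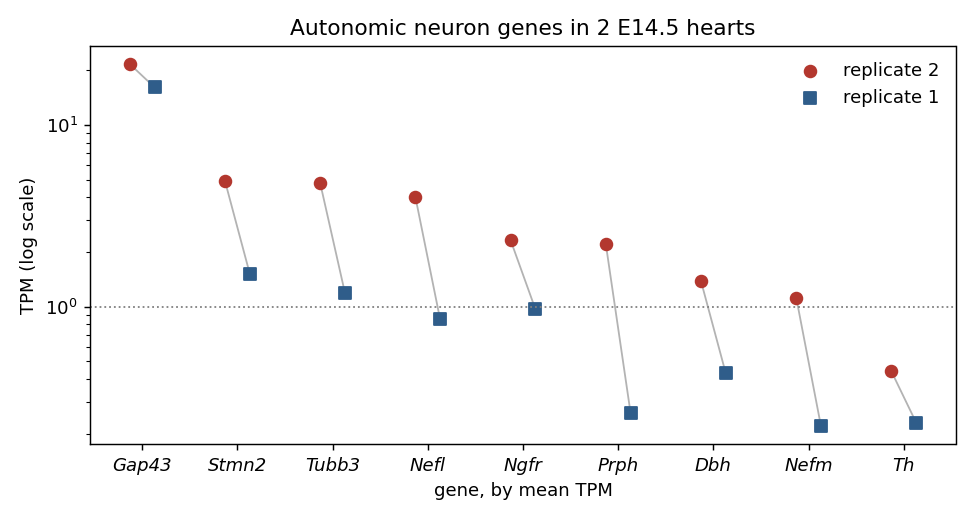
Level in TPM (log axis) of each of the 9 genes in replicate 2 (circles) and replicate 1 (squares), ordered by mean, with a dotted line at 1 TPM. Every circle is above its square, the gap is smallest for Gap43 (21.6 and 16.1 TPM), and it is largest for Prph (2.21 and 0.26 TPM).

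Gap43 encodes a membrane protein of growth cones, the tips of growing axons. It lies on chromosome 16 from 42248442 to 42340651 on the minus strand (GRCm38, GENCODE M21). Gap43 was at 21.6 TPM in replicate 2 and 16.1 in replicate 1, from 601 and 445 reads (18.9 ± 3.91 TPM, SD, n = 2). Its level exceeded that of 87.7% of gene rows in replicate 2 and 85.5% in replicate 1. It was the only one of the 9 less than 2-fold apart, at 1.297-fold (1.15 to 1.47), or 0.38 on the log2 scale. Gap43 was 4.41-fold above Stmn2 in replicate 2 and 10.6-fold above it in replicate 1, per length. No other neighbouring pair in the order of mean levels was separated in this way: for the other 7 of the 8 pairs the ranges over the 2 libraries overlapped. Basp1, another growth-cone membrane protein gene, was at 7.29 TPM in replicate 2 and 5.09 in replicate 1, and of 4 such relatives (with Nrgn, Marcks and Marcksl1) none was 2-fold apart. Schwann cell precursors are also known to express Gap43, as they do Ngfr.

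Stmn2 encodes stathmin 2, a neuronal regulator of microtubules in growing axons, on chromosome 3 from 8509360 to 8561606. Stmn2 was at 4.91 TPM in replicate 2 and 1.52 in replicate 1, from 207 and 59 reads (3.22 ± 2.40 TPM, SD, n = 2). That was 3.35-fold (2.51 to 4.58) higher in replicate 2. The ubiquitous family member Stmn1 held 98.8% of the summed stathmin TPM in replicate 2 and 99.7% in replicate 1, and it differed by 0.01 on the log2 scale. Stmn3 and Stmn4, the other neuronal members, had 62 and 33 reads in replicate 2, against 4 and 11 in replicate 1. Stmn3 was thus 13.3-fold higher (5.53 to 56.4) and Stmn4 2.80-fold higher (1.42 to 6.32) in replicate 2. Both were picked out after their values were seen.

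Tubb3 encodes the class III beta-tubulin used as a marker of young neurons, on chromosome 8 from 123411424 to 123422015. Tubb3 was at 4.78 TPM in replicate 2 and 1.19 in replicate 1, from 178 and 44 reads (2.99 ± 2.54 TPM, SD, n = 2). The difference was 3.85-fold (2.78 to 5.54). Tubb3 was a minor beta-tubulin of the heart, with 0.437% of the summed TPM of 8 family genes in replicate 2 and 0.117% in replicate 1. The broadly expressed Tubb5 held 49.7% and 51.5%, in the same order of libraries, and differed by less than 0.01 on the log2 scale. Over the 7 other beta-tubulins the median difference was 0.02, and none was 2-fold apart. No 50-mer of Tubb3 occurs in a transcript of another annotated gene on either strand. The gene model Gm20388 spans Tubb3 and had 0 and 101 reads with posterior SDs of 38.8 and 93.6 reads, whereas the posterior SD of the Tubb3 count was 0 in both libraries.

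Prph, Nefl and Nefm encode intermediate filament proteins of axons, peripherin being typical of peripheral neurons and the light and medium neurofilament chains of neurons in general. Prph lies on chromosome 15 from 99055174 to 99058978. Prph was at 2.21 TPM in replicate 2 and 0.26 in replicate 1, from 78 and 9 reads (1.24 ± 1.38 TPM, SD, n = 2). It had the largest fold of the 9 genes, 7.94, but with only 9 reads in replicate 1 its interval ran from 4.17 to 18.9. Nefl, on chromosome 14 from 68083863 to 68089095, was at 4.01 TPM in replicate 2 and 0.85 in replicate 1, from 277 and 58.5 reads. Nefm, from 68082590 to 68124846 on the opposite strand, was at 1.12 TPM in replicate 2 and 0.22 in replicate 1, from 76 and 15.5 reads. Nefl and Nefm differed by nearly the same amount, 4.52-fold (3.45 to 6.20) and 4.59-fold (2.64 to 8.39). The ratio of Nefl to Nefm in TPM was likewise close, 3.58 in replicate 2 and 3.86 in replicate 1. The ratio of Nefl to Prph was 1.81 in replicate 2 and 3.27 in replicate 1.

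The 2 neurofilament genes overlap in the annotation. Of 3331 50-mers of the Nefl transcript, 1059 (31.8%) occur on the opposite strand of the 4-exon form of Nefm, and whether strand was used in counting was not given in the sources used here. The posterior SD of both counts was 2.44 reads in replicate 2 and 1.63 reads in replicate 1. That 4-exon form was given 0 reads in replicate 2 and 5.50 in replicate 1. On the 3-exon form alone, which shares no 50-mer with another gene and was examined after seeing the data, Nefm had 76 reads in replicate 2 and 10.0 in replicate 1, a log2 difference of 2.81 against 2.20 for the whole gene. The third chain, Nefh, and the related Ina had 13 and 14.0 reads in replicate 2, against 22 and 1 in replicate 1. Of the summed TPM of the 10 filament genes, Vim of mesenchymal cells held 73.6% in replicate 2 and 73.9% in replicate 1, and Des of muscle cells held 24.9% and 25.1% in the same order. Vim and Des differed by 0.01 and 0.03 on the log2 scale.

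Ngfr encodes the low-affinity neurotrophin receptor p75, found on neural crest cells, autonomic neurons and Schwann cells. It lies on chromosome 11 from 95568818 to 95587735 on the minus strand. Ngfr was at 2.32 TPM in replicate 2 and 0.97 in replicate 1, from 163 and 68 reads (1.65 ± 0.955 TPM, SD, n = 2). The difference was 2.29-fold (1.73 to 3.10), the smallest of the 8 genes past 2-fold. Of the 50-mers of Ngfr, 0.824% occur in other genes on the same strand, and the posterior SD of its count was 0 in both libraries.

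Th and Dbh encode the enzymes at the first and the last step from tyrosine to noradrenaline, tyrosine hydroxylase being rate-limiting. Dbh, on chromosome 2 from 27165233 to 27183200, was at 1.38 TPM in replicate 2 and 0.43 in replicate 1, from 71 and 22 reads. It was 3.05-fold higher (1.90 to 5.26) in replicate 2. Th, on chromosome 7 from 142892752 to 142931128, was the lowest of the 9 genes, at 0.44 TPM in replicate 2 and 0.23 in replicate 1. Only 16 reads in replicate 2 (exact Poisson 95% interval 9.15 to 26.0) and 6 in replicate 1 (2.20 to 13.1) support it. The fold of Th was 2.44 with an interval of 0.952 to 7.995, which includes a ratio of 1. Th was the only one of the 9 whose interval did so. Among the other aromatic amino acid hydroxylases, Tph2 had 0 reads in both libraries, and Tph1, of serotonin synthesis, had 3 in replicate 2 and 14 in replicate 1. By the posterior mean TPM in the deposited tables, Th was at 0.87 TPM in replicate 2 and 0.59 in replicate 1, above the values by TPM in both. Dbh was at 1.79 TPM in replicate 2 and 0.87 in replicate 1 by the same estimate.

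**Figure D2:**
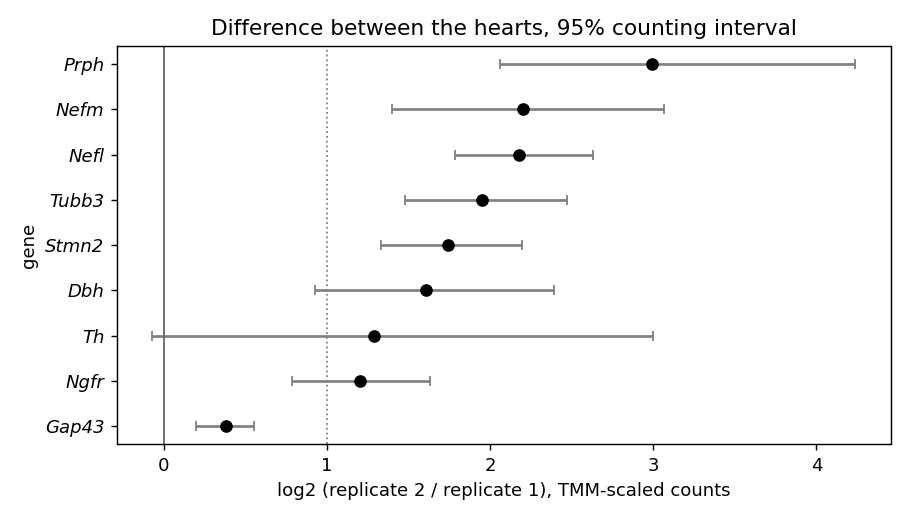
Log2 difference of replicate 2 over replicate 1 for each of the 9 genes, with points at the estimate and bars for the 95% counting interval. A solid line marks no difference and a dotted line 2-fold, and the interval of Th alone reaches below 0 (log2 -0.07 to 2.999).

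Of the 9 genes, 8 were at least 2-fold higher in replicate 2, with a median log2 difference of 1.74. Over the 16387 gene rows with a mean count of at least 10, a count that all 9 reach, 2.48% were at least 2-fold higher in replicate 2, 1.53% were 2-fold or more lower, and the median difference was 0.00. The share depends on the number of reads. At mean counts of at least 50 it was 0.583%. At mean counts of at least 100, 0.309% of 11958 gene rows were that much higher in replicate 2, and Tubb3, Stmn2, Ngfr and Nefl were among them while Gap43 was not. From 25 to under 75 mean reads the share was 5.67%, and Dbh, Prph and Nefm lay in that range. From 10 to under 25 mean reads, the range of Th, it was 13.1%. The choice of genes used this same contrast, so no more is read from these counts.

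**Figure D3:**
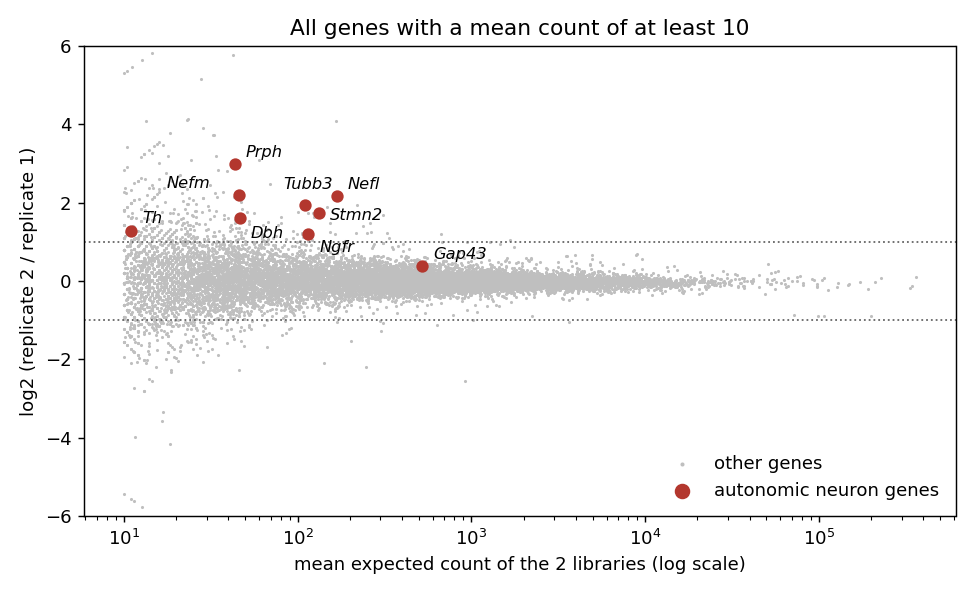
Log2 difference of replicate 2 over replicate 1 against the mean expected count (log axis) for gene rows with a mean count of at least 10, with the 9 genes in red and dotted lines at 2-fold in each direction. The cloud narrows as counts grow, 8 of the 9 genes lie above the upper dotted line, Gap43 lies below it at 0.38, and 21 other rows lie beyond 6 log2 units, outside the plotted range.

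Transcript use of the 9 genes was simple where reads sufficed. Tubb3, Ngfr and Nefl had 1 transcript each in the deposited tables, and the main form of Gap43 and of Dbh held 100% of the gene's TPM in both hearts. The 5-exon form of Stmn2 held 97.8% in replicate 2 and 93.4% in replicate 1. The 9-exon form of Prph held 91.4% in replicate 2 and 100% in replicate 1, where only 9 reads were counted. The 13-exon form of Th held 100% in replicate 2 and 62.5% in replicate 1, but the rest of replicate 1 was 0.71 of an estimated read on a form annotated for nonsense-mediated decay. The 3-exon form of Nefm held 100% in replicate 2 and 68.2% in replicate 1, the remainder being the 5.50 reads described above.

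Other genes of the noradrenergic route were closer between the hearts. Of 11 further catecholamine genes averaging 10 or more reads, 0 were 2-fold higher and 1 (Slc18a1) was 2-fold lower in replicate 2, and their median difference was 0.07. Slc18a1 had 15 reads in replicate 2 and 32 in replicate 1, but in TPM it was closer, at 0.74 and 0.83 in the same order. Ddc, the enzyme between Th and Dbh, was at 89.6 TPM in replicate 2 and 93.1 in replicate 1, far above either. Slc18a2, the vesicular monoamine transporter, was at 10.1 TPM in replicate 2 and 9.26 in replicate 1. Slc6a2, the noradrenaline transporter of sympathetic endings, had 0 reads in both, which allows up to 0.0312 TPM in replicate 2 and 0.0314 in replicate 1 at 3 reads. Pnmt, which turns noradrenaline into adrenaline, had 15 reads in replicate 2 and 12 in replicate 1. Qdpr and Pts, which act in cofactor supply and are broadly expressed, were at 64.2 and 60.4 TPM in replicate 2, against 64.5 and 53.0 TPM in replicate 1.

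Transcription factors of autonomic neurons were next examined. Phox2a, a homeodomain factor of autonomic neurons, had 26 reads in replicate 2 and 2 in replicate 1, or 10.2-fold (3.13 to 109). Insm1 and Hmx1 had 0 reads in both. Hand2 was at 14.4 TPM in replicate 2 and 13.5 in replicate 1, and Gata2 at 7.65 and 6.39 TPM in the same order. Sox4 and Sox11 differed by 0.14 and 0.07 on the log2 scale. Isl1, active in autonomic neurons and in the sinus node, was at 4.18 TPM in replicate 2 and 1.73 in replicate 1. Of the 8 factors averaging 10 or more reads, 3 were 2-fold higher in replicate 2 and the median was 0.25.

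Among cholinergic genes, Ache, the enzyme that breaks down acetylcholine and is also made outside neurons, was the only one of 9 at 1 TPM in both hearts. It was at 9.71 TPM in replicate 2 and 8.74 in replicate 1, or 1.07-fold (0.933 to 1.24). Slc18a3, the vesicular acetylcholine transporter, had 31 reads in replicate 2 and 4 in replicate 1, or 6.73-fold (2.63 to 29.04). Slc5a7, the choline transporter, went the other way, with 68 reads in replicate 2 and 84 in replicate 1, and an interval (0.557 to 1.08) that includes a ratio of 1. Chat, the synthetic enzyme, had 2 reads in replicate 2 and 0 in replicate 1, too few for a comparison. Chrna3, a subunit of the ganglionic nicotinic receptor picked out after its values were seen, had 45 reads in replicate 2 and 2 in replicate 1, or 17.5-fold (5.65 to 184). Its partner Chrnb4 had 38 and 19 reads in the same order. Of 5 cholinergic genes averaging 10 or more reads, 2 were 2-fold higher in replicate 2, with a median of 0.92.

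Pan-neuronal genes outside the 9 mostly lay on the same side. Of 15 with a mean count of at least 10, 13 were higher in replicate 2, 5 were at least 2-fold higher, 0 were 2-fold lower, and the median was 0.79. All 5 averaged 25 to under 75 reads, a range in which 5.67% of all gene rows were at least 2-fold higher. Syt1, the calcium sensor of synaptic vesicles, had 83 reads in replicate 2 and 34 in replicate 1, or 2.33-fold (1.56 to 3.61). The RNA-binding protein genes Elavl2 and Elavl4 were at 2.48 and 4.66 TPM in replicate 2, against 1.47 and 2.53 TPM in replicate 1. Other members differed less, with Uchl1 at 105 TPM in replicate 2 and 82.5 in replicate 1, and Ncam1 at 68.5 and 78.1 TPM in the same order. Rtn1 and Map2 differed by 0.15 and 0.22 on the log2 scale. Which cells these reads came from was not tested.

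Signals that nerves receive were measured too. The ligand genes Nrtn and Ntf3 were nearly alike, with Nrtn at 24.5 TPM in replicate 2 and 24.2 in replicate 1 and Ntf3 at 5.86 and 5.48 TPM in the same order. Sema3a, a repellent of sympathetic axons, was at 10.3 TPM in replicate 2 and 11.0 in replicate 1. Of 13 ligand and receptor genes of this list averaging 10 or more reads, 2 (Ret and Bdnf) were 2-fold higher in replicate 2, and the median was 0.56. Of all gene rows, 5.67% were that much higher from 25 to under 75 mean reads, the range of Ret. From 10 to under 25 mean reads, the range of Bdnf, the share was 13.1%. Among neuropeptide genes, Gal, Penk and Calca were at 6.75, 6.06 and 5.82 TPM in replicate 2. In replicate 1 they were at 5.61, 4.50 and 3.77 TPM. Npy went the other way, at 1.73 TPM in replicate 2 and 2.05 in replicate 1, from 17 and 20 reads. The interval of Npy (0.402 to 1.64) includes a ratio of 1. Of the 4 peptide genes averaging 10 or more reads, 3 were higher in replicate 2 and none was 2-fold apart.

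Schwann cell and neural crest genes, which share Ngfr and Gap43 with neurons, were then set beside them. Of 6 with a mean count of at least 10, 3 were higher in replicate 2, 0 were 2-fold apart, and the median was -0.04. Erbb3, a receptor gene of Schwann cell precursors, was at 2.29 TPM in replicate 2 and 2.71 in replicate 1. Sox10, the factor that defines this lineage, had 27 reads in replicate 2 and 21 in replicate 1. The summed level of all 13 list genes was 94.0 TPM in replicate 2 and 90.0 in replicate 1, mostly Ednrb, which endothelial and other heart cells also express.

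Genes of the sinus node, the pacemaker that receives dense autonomic innervation, were also higher in replicate 2. All 6 were higher, 3 of them at least 2-fold, with a median of 1.03, and their summed level was 56.0 TPM in replicate 2 and 29.2 in replicate 1. Shox2 was at 8.80 TPM in replicate 2 and 2.58 in replicate 1, and Vsnl1 at 24.4 and 10.3 TPM in the same order. The third was Isl1, which is also 1 of the 3 autonomic transcription factors counted above. All 3 averaged at least 100 reads, and 0.309% of gene rows with such counts were that much higher in replicate 2. The list was chosen with earlier results of these data known. No gene of the list was at 0. The smooth muscle gene Myh11 was at 1.39 TPM in replicate 2 and 0.43 in replicate 1, and 3 of 4 smooth muscle genes were higher in replicate 2, with a median of 0.15. Their summed level was 1214 TPM in replicate 2 and 1246 in replicate 1, mostly Acta2, the 1 that was lower in replicate 2. The epicardial sum was 139 TPM in replicate 2 and 116 in replicate 1, with 3 of 4 genes higher in replicate 2. The part of any of these in the difference of the neuronal genes was not tested.

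Markers of other tissues and neural crest lineages were measured as well. Of 9 sensory neuron genes, Neurog1, Neurog2, Prdm12 and Trpv1 had 0 reads in both, and the list summed to 1.87 TPM in replicate 2 and 1.84 in replicate 1. Most of that was Scn10a, at 0.87 TPM in replicate 2 and 1.04 in replicate 1, and Runx1, at 0.78 and 0.66 TPM in the same order. The sodium channel gene Scn9a, named after its values were seen, had 15.2 reads in replicate 2 and 2.11 in replicate 1, or 5.79-fold (1.68 to 64.9). Among 8 brain genes, Neurod2, Olig2, Slc17a6 and Sox1 had 0 reads in both, and the sums were 0.87 TPM in replicate 2 and 0.37 in replicate 1. Gad2 of that list was at 0.52 TPM in replicate 2 and 0.08 in replicate 1, from 19 and 10 reads. The adrenal list summed to 2.37 TPM in replicate 2 and 2.70 in replicate 1, with Nr5a1, its defining factor, at 0 and 1 reads and Cyp17a1, a steroid hydroxylase gene, at 1.26 and 1.42 TPM. Sftpc of lung and Foxn1 of thymus had 0 reads in both, and the 5 genes of these organs summed to 0.38 TPM in replicate 2 and 0.08 in replicate 1. Foxa2 and Nkx2-1 of that list had 8 and 3 reads in replicate 2, against 0 each in replicate 1. Ptcra had 3 reads in replicate 2 and 2 in replicate 1. Melanocyte genes, from another neural crest lineage, summed to 28.6 TPM in replicate 2 and 28.3 in replicate 1, mostly Mitf, and had a median difference of -0.13. Of the 6, 4 were at 1 TPM or more in both hearts, among them Dct and Pmel, pigment genes at 3.47 and 3.37 TPM in replicate 2, against 2.12 and 2.78 TPM in replicate 1. The part of these lists in the difference of the 9 genes was not tested.

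**Figure D4:**
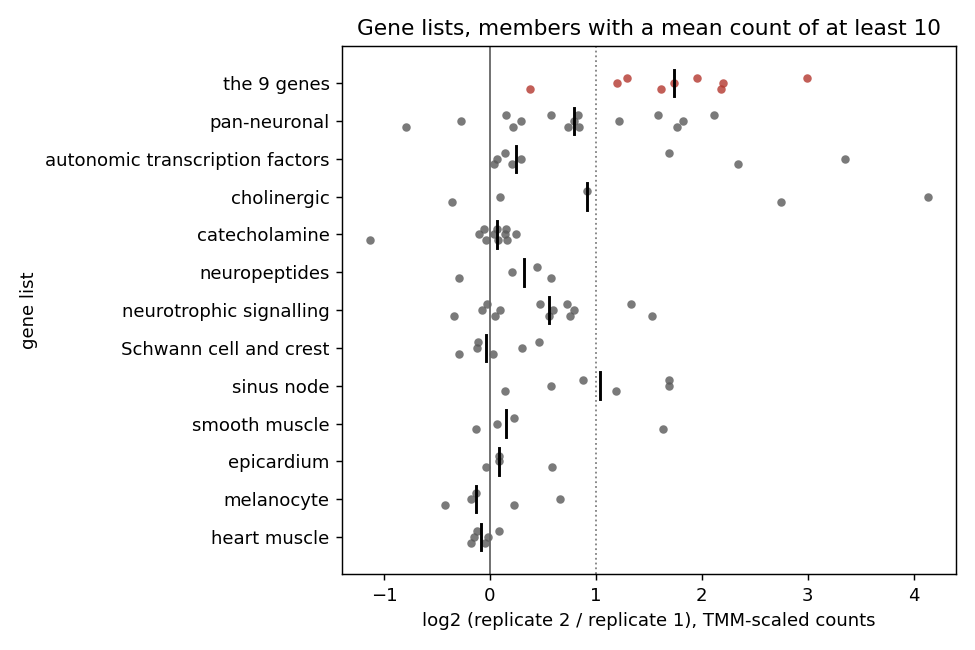
Log2 difference of replicate 2 over replicate 1 for each gene averaging 10 or more reads in 13 gene lists, the first being the 9 genes in red, which are left out of the others. Black bars are list medians: 1.74 for the 9 genes, 1.03 for the sinus node, 0.92 for cholinergic and 0.79 for pan-neuronal genes. Medians were 0.56 for neurotrophic signalling, 0.33 for neuropeptides, 0.25 for autonomic transcription factors and 0.07 for catecholamine genes, and -0.04 for Schwann cell and crest genes.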

How the data were processed

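Total RNA-seq of 2 mouse hearts was analysed from 1 gene table and 1 transcript table per library. Assembly mm10 and annotation M4 are named in the deposited file notes. The aligner, the quantification tool and strand use were not given in the sources used here, and the column names are those of RSEM. The expected counts are the authors' deposited estimated counts, unscaled and fractional. TPM and FPKM were computed by the authors with effective lengths, per the file headers, TPM over all 69691 rows. The percent of a transcript within its gene was recomputed from the deposited TPM. Symbols came from GENCODE M21 (98.0% of gene rows matched). Counts were rounded and scaled by TMM in edgeR 4.0.16 (R 4.3.3), with DESeq2 1.42.0 size factors as an alternative. The fold and its interval were tested on simulated Poisson counts, the counting error that the interval assumes. That checks the calculation and not the spread of these libraries. No p-value was computed, since 1 group of 2 libraries allows none. Intervals and floors (3 reads) cover counting error only, because reads are not independent molecules. Named genes were the 9, up to 5 leading genes per list at 1 TPM or more in both hearts, list genes at least 2-fold apart at a mean count of at least 50, and defining genes of cell types. The members and all 22 lists were chosen with earlier results of these data known. Some list genes enter the counts and sums but are not reported here by name. Likeness of pattern was not computed, since 2 libraries give 1 difference.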

Additional observations from a re-analysis of the deposited data

How the results depend on the processing

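All 54 recomputed differences of the 9 genes, over 6 alternatives (DESeq2 size factors, total count, spike-in scaling, TPM ratio, posterior mean counts and a prior of 2), kept their sign and stayed within the counting interval. Th ranged from 0.94 to 1.40 and Prph from 2.80 to 3.10 on the log2 scale, so that by the TPM ratio 7 genes in place of 8 were 2-fold apart. Spike-in scaling moved the median of all genes by 0.11. Requiring a mean count of at least 50 or at least 100 left 4 genes 2-fold apart, because fewer genes were then counted. Without Th, an alternative chosen after seeing the data, 7 were. The number of genes detected in both hearts was 5 at 0.5 TPM and 1 at 2 TPM, against 3 at 1 TPM, and leaving out 1 library gave 3 (replicate 1 alone) to 8 (replicate 2 alone). Scaling alternatives for the other lists and named list genes, also chosen after seeing the data, changed no count by over 1.5 times and no direction. Differences without 1 library cannot be had. No paired analysis was possible because the 2 libraries form 1 group. Depth limits Th most, at 16 and 6 reads.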
